A study of Rattus norvegicus with 20 samples.

Results

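The cytosolic ribosomal protein genes encode the proteins of the ribosomes that translate nuclear messenger RNA. They were followed in primary cultures of neonatal rat heart, which the labels call cardiomyocytes, left untreated or exposed to diclofenac, a non-steroidal anti-inflammatory drug. Members were taken from the names on the arrays: probes named Rpl or Rps followed by a number, with an optional letter, together with Rplp1, Rplp2 and Rpsa, and without the Rps6k kinases. This rule found 69 gene names, carried by 106 probes and 124 spots, among 35581 gene names on the array. No member probe was named Rplp0, Rps27l, Rpl3l, Rpl7a, Rpl10l or Rpl39l. A further 6 probes named as predicted ribosomal protein genes fell outside the rule.

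The cultures grew for a day in DMEM medium before treatment. The 7 groups were untreated cultures (n = 2) and cultures given diclofenac at reference concentration 1, 1/5 or 1/25, each for 6 h and for 24 h (n = 3 for each of the 6 treated groups). All groups shared the tissue, the developmental stage and the culture method, and the labels give neither the molar concentration of diclofenac nor the time at which untreated cultures were taken. Amplified total RNA carrying the dye Cy3 was read on 20 one-colour Agilent arrays. Whether the arrays of a group hold independent cultures is left unsaid in the labels, and the p-values therefore describe spread among these arrays, possibly of technical origin. In bulk RNA, fewer cells of a type and less RNA per cell cannot be told apart. Probes of all 10 cardiomyocyte markers examined were well above background on every array, as were those of 4 of 7 fibroblast, 2 of 4 endothelial, 1 of 3 smooth muscle, 1 of 4 erythroid and 3 of 4 leukocyte markers.

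A eukaryotic ribosome is built from a small subunit, which reads the messenger RNA, and a large subunit, which joins amino acids. Each subunit holds ribosomal RNA and one copy of nearly every ribosomal protein, and the acidic proteins Rplp1 and Rplp2 form a flexible stalk that recruits elongation factors. The messages of these genes are among the most abundant in mammalian cells. In mammals most of them start with a run of pyrimidines at their extreme end, through which the mTOR kinase pathway controls how much they are translated, so that protein output can change without a change in message. Growth of heart muscle cells goes along with an increase in their number of ribosomes. Ribosomal proteins that are not built into ribosomes, Rpl5 and Rpl11 first among them in human and mouse cells, can bind the ubiquitin ligase MDM2.

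The probes are 60-base oligonucleotides, and some of the results below turn on where a probe sits. The 3 Rpl5 probes are shown because they moved in different directions. In their order along the transcript they lie at chr14:2402608-2402753, chr14:2401483-2402588 and chr14:2400673-2400732 on the minus strand (coordinates are those of the array files, build rn3). The first 2 map to spans longer than the probe itself, as probes that cross a splice junction do.
Rpl5 A_44_P432139: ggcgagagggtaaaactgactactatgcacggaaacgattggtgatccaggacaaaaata
Rpl5 A_44_P605733: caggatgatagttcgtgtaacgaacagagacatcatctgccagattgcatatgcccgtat
Rpl5 A_44_P422103: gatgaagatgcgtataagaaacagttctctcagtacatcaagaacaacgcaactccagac

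The next 4 probes carry large changes between 24 h and 6 h (Rps2, Rpl3 and Rpl4) or part from another probe of their gene on an array that stood apart (Rpl15). They are Rps2 at chr10:13976847-13977101 (plus strand), Rpl3 at chr7:118351578-118352379 (minus strand), Rpl4 at chr8:68388166-68388613 (plus strand) and Rpl15 at chr15:9082880-9083180 (plus strand).
Rps2 A_44_P728951: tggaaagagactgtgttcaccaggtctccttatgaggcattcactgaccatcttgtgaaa
Rpl3 A_44_P355947: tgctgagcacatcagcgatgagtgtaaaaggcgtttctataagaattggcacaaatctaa
Rpl4 A_44_P537303: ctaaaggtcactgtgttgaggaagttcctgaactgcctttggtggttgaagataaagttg
Rpl15 A_44_P365421: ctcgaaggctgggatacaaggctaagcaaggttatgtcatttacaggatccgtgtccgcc

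The pyrimidine start was looked for in RefSeq transcript starts (build GRCr8), as a C at the first transcribed base followed by at least 4 bases that are C or T, on the strand of the gene. Starts were found for 55 of the 69 genes (56 starts), and 21 of them (37.5%) held the motif, against 2.63% of all 33469 starts and 2 of 65 starts of mitochondrial ribosomal protein genes. When the first base was allowed to lie up to 5 bases to either side, the shares were 62.5% of the ribosomal protein starts and 17% of all starts. Among the genes called between 24 h and 6 h below, Rpl31 and Rps27 (higher) held it, while Rps2, Rps28, Rpl5 and Rplp2 (higher) and Rpl3 and Rpl4 (lower) did not at the annotated base. Of the latter, Rps28 and Rpl4 held it when the first base was allowed to lie up to 5 bases away. The starts of the other called genes, among them Rpl15 and Rpl30, are not described here. Rpl31, Rps27 and Rps28 are shown as examples with and without the motif at the annotated base. In the 30 bases printed for each, the 12 bases before the start are followed by the first transcribed bases, and capitals mark the pyrimidine run. The windows are chr9:49143099-49143128 (plus strand), chr2:177964589-177964618 (minus strand) and chr7:15311316-15311345 (minus strand).
Rpl31 start: caatccctcgcgCCTTTCCTTTCCaacttg
Rps27 start: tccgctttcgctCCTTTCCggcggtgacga
Rps28 start: tcccctgctcacgtgactcctctccgctag

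Many ribosomal protein probes were too bright for the scanner. A saturated spot has reached the top of the scanner's range, so that its true brightness can only be higher. Of the 106 member probes, 62.3% were saturated on at least 1 array and 11 were saturated on all 20, against 16.6% and 3.18% of the 35069 probes kept for testing. The probes always saturated included those of Rplp1, of Rps27a, which is made as a fusion with ubiquitin, of Rpl13a, Rpl23 and Rpl32. Testing was limited to probes that the scanner software called well above background throughout some group, and 105 of the 106 members met this. The exception was an Rpl28 probe. By subunit, 17 of 45 and 23 of 59 small and large subunit probes were never saturated, and both stalk probes were saturated on some or all arrays. Only 27 of the 69 gene names had a probe that was never saturated.

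Levels below are log2 of the scanner's processed signal minus the log2 of the array's 75th percentile, so that a level of 0 is the brightness at that percentile. For a probe saturated on every array this value only mirrors the percentile. The median of the 11 always saturated members moved from 1.53 to 4.36 between arrays, while the median log2 signal before scaling stayed between 15.88 and 16.03. No level or fold is therefore given for Rplp1, Rps27a, Rpl13a, Rpl23 and Rpl32. These always saturated probes stayed in the test, so counts of members past a threshold can include them. They are a larger share of the members than of all probes.

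**Figure D1:**
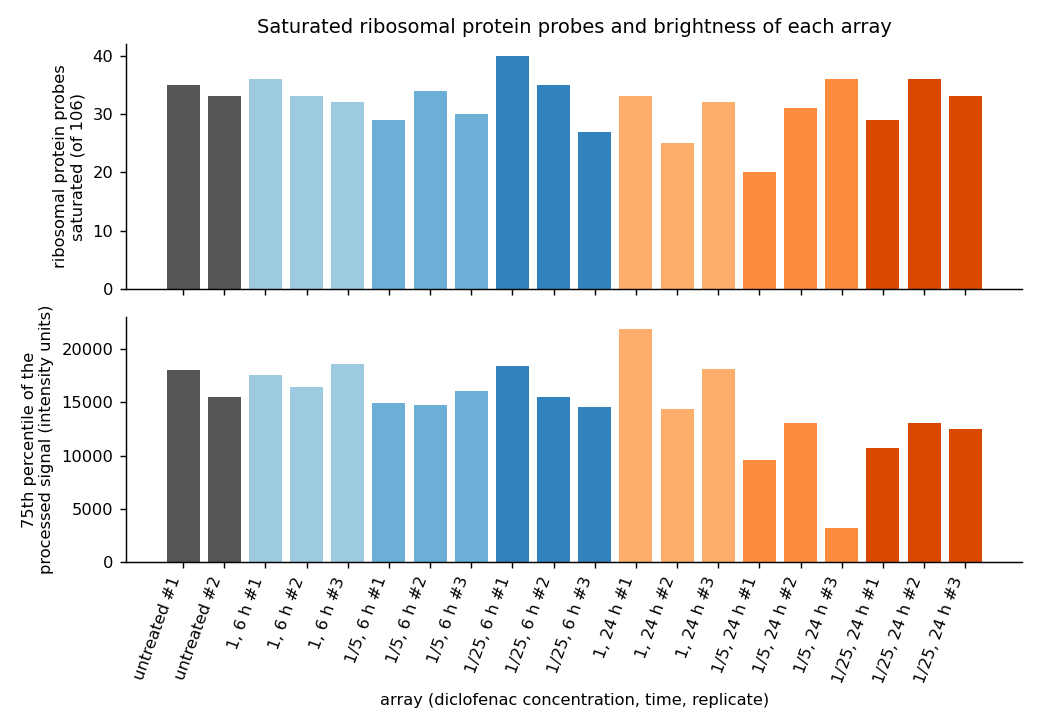
Number of the 106 ribosomal protein probes saturated on each of the 20 arrays (upper panel) and the array's 75th percentile of the processed signal in intensity units (lower panel), 1 bar per array, coloured by group. Between 20 and 40 members were saturated on an array, and the third array of 1/5 for 24 h has a percentile far below all others with 36 members saturated.

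The third array of concentration 1/5 for 24 h stood apart from the other 19 arrays. Its 75th percentile was 3165 intensity units, against 9623 to 21937 on the others, and 64.1% of its spots were well above background. On this array 34 of the 55 members that were saturated on none of the other 19 arrays lay more than 2 above their median over those arrays on the log2 scale, and 3 lay more than 2 below. Among all probes chosen the same way, 14.1% and 20.6% did. No other array had more than 5 of the 55 members that far above the rest. 16 of the 22 members saturated on exactly 1 array were saturated on this one. Medians of the members and changes between the times that moved by over 1.5 times without it are given both ways, and its part in them beyond that was not tested.

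Members lay both above and below their usual level on this array. The small subunit protein Rps25 stood at 4.18 on it, against -2.01 to -0.24 on the others. Other members lay far below. Rpsa, the small subunit protein also known as the laminin receptor precursor, stood at -3.71 and -2.54 with its 2 probes, against medians of 0.84 and 1.80 on the other arrays. Rpl4 stood at -5.63 against a median of 1.24, and Rpl3 at -4.34 against -0.20. Probes of a gene could part on this array: the Rpl15 probe at chr15:9082880-9083180 stood -4.75 relative to its median over the other arrays, and the Rpl15 probe nearer the 3′ end stood 3.46 relative to its own. The former was saturated on 11 of the other arrays, so its distance from the median is at least that large.

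**Figure D2:**
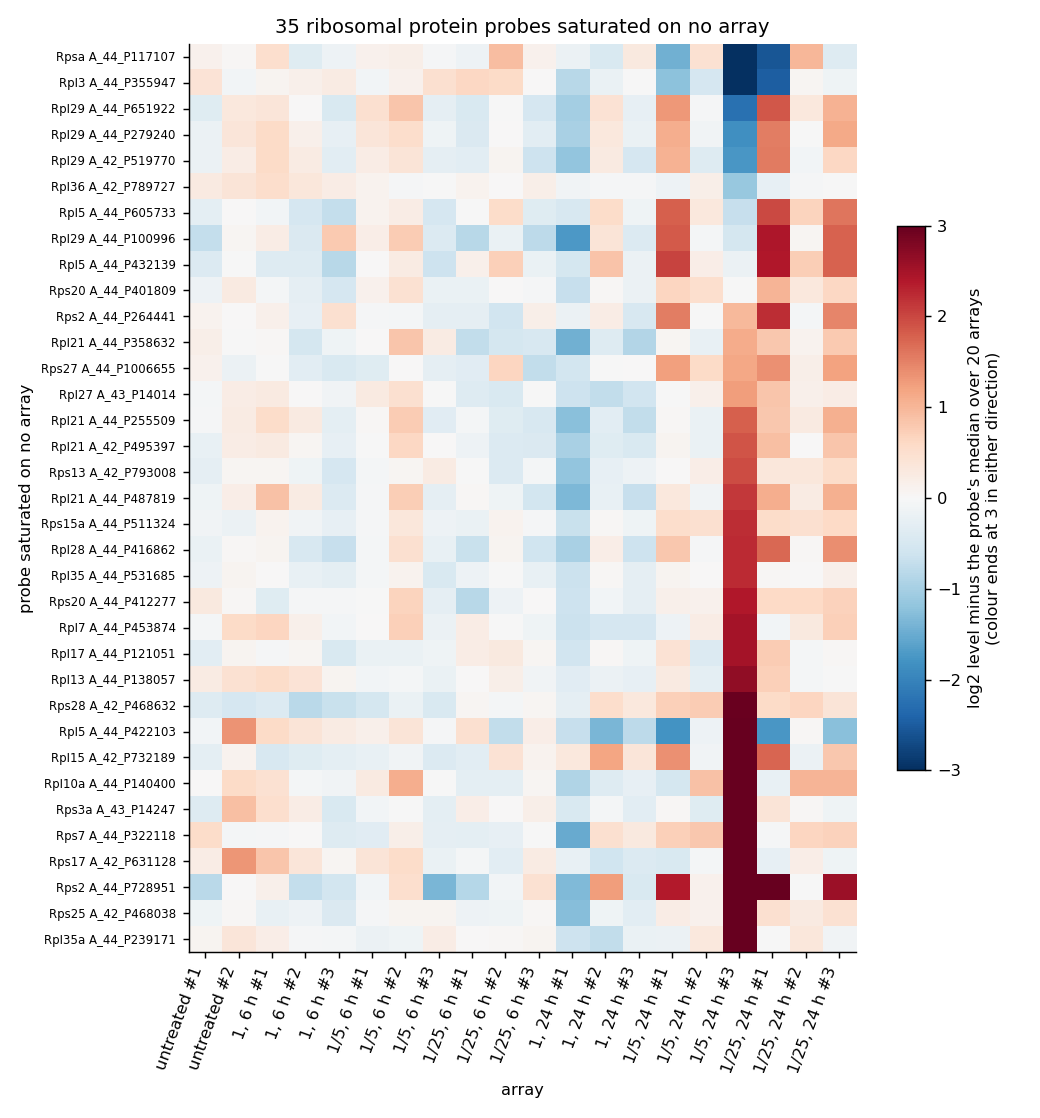
Levels of 35 of the 39 kept ribosomal protein probes that were saturated on no array (rows) on the 20 arrays (columns), as log2 level minus the probe's own median over the arrays, with red above and blue below that median. The third array of 1/5 for 24 h holds the strongest colours in both directions, and the 6 h and untreated columns are pale.

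The members varied between replicates about as much as other probes did. The median standard deviation (SD) within groups of the 39 never saturated members was 0.65 on the log2 scale with all arrays and 0.45 without it, against 0.67 and 0.53 over all never saturated probes. By mean level the brightest of the 39 were Rps15a (1.71 over the 20 arrays), Rps27 (1.23) and Rps13 (1.21), although a probe's brightness depends on its sequence and does not rank genes. Rps28 (-2.80) was among the lowest.

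After 6 h of diclofenac no ribosomal protein probe passed the test against untreated cultures. With limma's moderated test and Benjamini-Hochberg adjustment over the 35069 kept probes, 0 of 105 members passed an adjusted p of 0.05 at concentration 1 (percent of all probes called 0.00855%), 0 at 1/5 (0%) and 0 at 1/25 (0%). At an unadjusted p under 0.05 the members numbered 0, 0 and 1, against 1.57%, 1.1% and 1.19% of all probes. The median log2 change over the members saturated on no array of either group was -0.14 at concentration 1 (66 probes), 0.057 at 1/5 (67 probes) and -0.18 at 1/25 (63 probes). The same median over all such probes was 0.053, -0.024 and -0.12. Within the only slide that held both untreated cultures and concentration 1 for 6 h, the members' median change was -0.043.

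Rpl29, a large subunit protein, was among the members saturated on no array with the smallest p at concentration 1 for 6 h. It stood at -1.95 and -1.17 in untreated cultures and at -1.02, -1.68 and -0.46 after treatment. Its groups overlapped, and the log2 change was 0.51 ± 0.76 (SE, limma adjusted p = 1). Rps6, the small subunit protein that S6 kinases phosphorylate, was saturated on all 5 arrays of this comparison, so that it has no fold there.

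At 24 h the members' median lay below untreated cultures at concentration 1 and above them at 1/5 and 1/25, and no single member passed the test. The median log2 change was -0.37 at concentration 1 (14 of 65 probes above 0), 0.60 at 1/5 (37 of 49) and 0.47 at 1/25 (47 of 60). Over all probes the medians were -0.15, -0.33 and -0.35. Members called numbered 0 at concentration 1 (0% of all probes called), 0 at 1/5 (0.148%) and 0 at 1/25 (0.00285%). At an unadjusted p under 0.05 they numbered 1, 35 and 10 of 105, against 4.75%, 30% and 14.3% of all probes. The 35 at 1/5 include the 11 members saturated on every array, whose values only mirror the percentile. Without the third array of 1/5 for 24 h, the members' median at 1/5 was 0.13. Without the second array of that group 45 members were called, together with 34.2% of all probes. The mean log2 level over 3 smooth muscle markers lay between -0.28 and -0.21 in untreated cultures. At 24 h it lay between -1.44 and -0.86 at concentration 1, -3.43 and -0.94 at 1/5 and -1.86 and -0.39 at 1/25. The -3.43 came from the third array of 1/5, and no other array lay below -1.86. All 24 h arrays were lower than both untreated arrays in this mean, as were those of 1/5 for 6 h (-0.76 to -0.59). At concentration 1 for 24 h the mean over 10 cardiomyocyte markers lay between -0.35 and 0.10, against 0.28 to 0.48 in untreated cultures. That over 7 fibroblast markers lay between -0.94 and -0.36, against -0.34 to -0.11. Both overlapped with untreated cultures at 1/5 and 1/25 for 24 h. The endothelial and erythroid means overlapped with untreated cultures at every concentration for 24 h, and the leukocyte mean did at concentration 1 and 1/5. At 1/25 the mean over 4 leukocyte markers lay between -2.58 and -2.42, below the -2.32 to -1.99 of untreated cultures. The part of these markers in the members' medians was not tested. The arrays of 24 h lay on other slides than the untreated arrays, so slide and treatment cannot be told apart in these comparisons. The 75th percentile was 18096 and 15473 intensity units on the untreated arrays. It lay lower without overlap at 1/5 (3165 to 13095) and 1/25 (10726 to 13103) for 24 h, and overlapped at concentration 1 (14356 to 21937). Its part in the medians was not tested. At 1/25 the 3 arrays lay above both untreated arrays for 23 of the 60 members, against 10.7% of all probes, and below both for 4, against 25.4%. With each array scaled to its median these counts were 37, against 20.6%, and 0, against 13%.

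The large subunit protein Rpl21 had the smallest p at concentration 1 for 24 h. Its probe A_44_P358632 stood at -0.79 and -0.99 in untreated cultures and at -2.41, -1.35 and -1.85 at concentration 1, without overlap, a log2 change of -0.98 ± 0.43 (SE, limma adjusted p = 0.994). Rpl27 followed with -1.79 and -1.5 and -2.36, -2.47 and -2.31, again without overlap, and -0.74 ± 0.37 (SE, limma adjusted p = 0.994). Among members that lay higher, Rps28 changed by 0.64 ± 0.50 and Rpl15 by 0.72 ± 0.71 (SE), neither past the threshold.

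The median level of the 39 never saturated members on each array is given next. It was -0.31 and -0.10 on the untreated arrays. At 24 h it was -1.05, -0.31, -0.47 at concentration 1, 0.20, -0.40, 1.68 at 1/5 and 0.26, 0.011, 0.41 at 1/25, in replicate order. The 3 arrays of 1/25 lay above both untreated arrays, and those of concentration 1 overlapped with them.

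**Figure D3:**
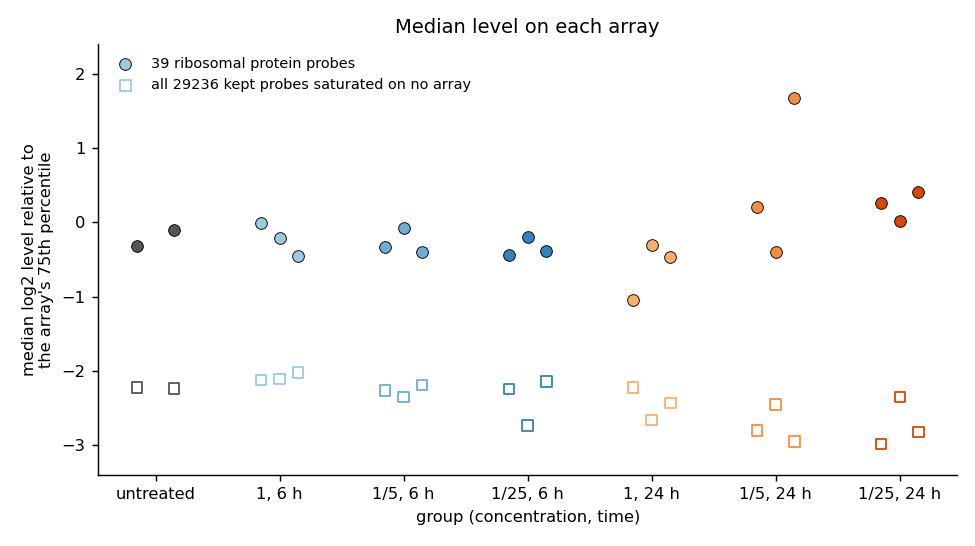
Median log2 level relative to the array's 75th percentile (vertical axis) over the 39 never saturated ribosomal protein probes (filled circles) and over all 29236 kept probes saturated on no array (open squares), 1 point per array, by group. Circles of 1/25 for 24 h lie above those of concentration 1 for 24 h without overlap, and the highest circle is the third array of 1/5 for 24 h.

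Between the 2 ends of the concentration range at 24 h the members lay lower at concentration 1. The median log2 change of concentration 1 against 1/25 was -0.95 over 62 members, 7 of which were above 0, while the median over all 29933 such probes was 0.19. For 33 of the 62 members the 3 arrays of concentration 1 lay below the 3 of 1/25 without overlap, against 3.74% of all probes, and for 0 members they lay above, against 7.34%. After scaling each array to its median instead, 24 members lay below without overlap, against 5.25% of all probes, and 0 above, against 4.06%. Single probes did not pass the test: 0 of 105 members were called (0.00285% of all probes), and 20 had an unadjusted p under 0.05, against 5.02% of all probes. The array that stood apart is in neither of these groups. Marker levels differed between them too. The mean log2 level over 7 fibroblast markers lay between -0.94 and -0.36 at concentration 1 and between -0.29 and -0.13 at 1/25, without overlap. Over 10 cardiomyocyte markers it lay between -0.35 and 0.10 and between -0.16 and 0.66, with overlap. The smooth muscle markers given above overlapped as well, and so did the endothelial and erythroid means. The mean over 4 leukocyte markers lay between -2.422 and -1.976 at concentration 1. At 1/25 it was lower, between -2.580 and -2.424, just without overlap. The part of these markers in the result was not tested. Array brightness differed as well. The 75th percentile, which every level is set against, lay between 14356 and 21937 intensity units at concentration 1. At 1/25 it lay between 10726 and 13103, without overlap, and its part in the result was not tested. All 3 arrays of concentration 1 were on 1 slide and those of 1/25 on 2 others, so slide and concentration cannot be told apart.

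Rpl21 shows the difference with its probe A_44_P358632, which stood at -2.41, -1.35 and -1.85 at concentration 1 and at -0.17, -0.87 and -0.20 at 1/25, a log2 change of -1.46 ± 0.38 (SE, limma adjusted p = 0.732). Rps29, a zinc-binding small subunit protein, stood at 0.27, 0.79 and 0.68 at concentration 1 and at 1.35, 1.5 and 1.72 at 1/25. The groups did not overlap, and the log2 change was -0.94 ± 0.57 (SE, adjusted p = 0.824). Rps18, a protein of the head of the small subunit, stood at 0.055, 0.63 and 0.47 and at 1.46, 0.87 and 1.48, again without overlap. Rpl11, which with Rpl5 carries a ribosomal RNA into the large subunit, stood at 0.035, 0.55 and 0.21 and at 1.5, 0.77 and 1.45. Rpl10a stood at -1.24, -0.73 and -0.58 and at -0.57, 0.67 and 0.68, with the highest of the former just below the lowest of the latter. These 5 genes did not overlap between the concentrations. Rps7, a small subunit protein that binds MDM2 in human cells, stood at -1.65, 0.35 and 0.16 and at -0.16, 0.51 and 0.56, and its groups overlapped. Rps4x, whose gene lies on the X chromosome, went from 0.67, 1.05 and 1.34 to 0.93, 1.51 and 1.41, also with overlap.

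At 6 h the members' median lay near 0 for the same comparison. The median change of concentration 1 against 1/25 was 0.029 over 62 members, against 0.21 over all probes, and 0 members were called (0.0171% of all probes), with 0 at an unadjusted p under 0.05, against 5.18% of all probes. With each array scaled to its median the members' median turned to -0.26. Whether the effect of concentration differed between the times was tested as an interaction in the same fit. It called 0 of 105 members and 0 of all probes (0%). At an unadjusted p under 0.05 stood 8 of 105 members and 903 of 35069 probes. The members' median interaction was -0.81 over the 39 never saturated ones. No median over all probes is given beside it, so it cannot be read as particular to the members. A difference between the times was thus not shown for any single probe, and for the members together it was not tested.

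Over the 3 concentrations together, 12 of 105 member probes differed between 24 h and 6 h, 10 higher and 2 lower. This was the only one of the 12 comparisons that called any member, and it also called 22.7% of all probes (7.33% higher and 15.4% lower). The share of 12 in 105 lay below that background, and the difference was not tested. The higher probes included 2 of Rps2 and 1 each of Rps27, Rps28, Rpl5, Rpl15, Rpl30, Rpl31 and Rplp2, and the 2 lower ones belonged to Rpl3 and Rpl4. The median change over the 40 members saturated on none of the 18 treated arrays was 0.28, and 32 of them were above 0, against a median of -0.27 and 36.3% of all probes. Without the array that stood apart 18 members were called (14 higher, 4 lower, with 27.3% of all probes). Of these, 11 were among the 12. The higher ones included Rpl13a and Rps16, whose probes were saturated on all 20 arrays, and an Rps15 probe saturated on 19. Such values largely mirror the percentile and are no measure of a change. The members' median without the array that stood apart was 0.085. At an unadjusted p under 0.05, 33 members stood against 41.9% of all probes.

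The number of calls was unsteady. Leaving out 1 array at a time gave 1 to 43 called members, while the share of all probes called ran from 9.06% to 44.5%. The count moved by more than 1.5 times without any of 12 arrays: each array of concentration 1 for 6 h, the first and the third of 1/5 for 6 h and of 1/25 for 6 h, the second and the third of 1 for 24 h, the second of 1/5 for 24 h, and the first and the third of 1/25 for 24 h. The lowest count came without the first array of 1/25 for 6 h, the second of 1 for 24 h or the first of 1/25 for 24 h, and the highest without the second of 1/5 for 24 h. With each array scaled to its median, 45 members were higher and 1 was lower. That scaling called 34.9% of all probes. Under the 75th percentile and the median scaling, the median of all probes lay at -0.27 and 0.13, and the members lay 0.55 above that median with either. Of all probes, 2570 were higher and 5390 lower under the first and 8955 and 3293 under the second. Rps28 was the only member called without each of the 20 arrays in turn.

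**Figure D4:**
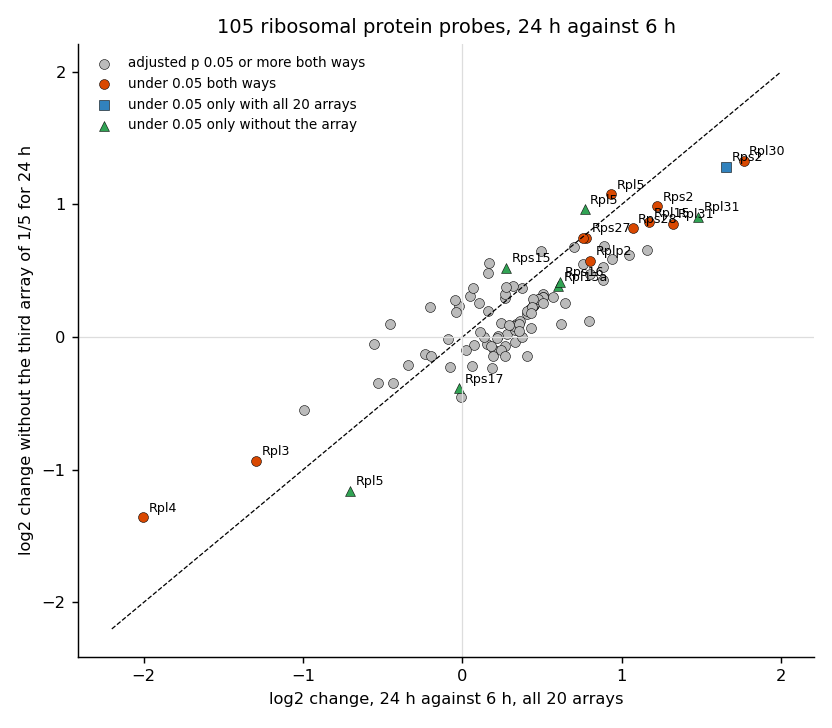
Log2 change between 24 h and 6 h over the 3 concentrations for the 105 kept ribosomal protein probes, with all 20 arrays (horizontal axis) and without the third array of 1/5 for 24 h (vertical axis), 1 point per probe. Colours show which probes passed an adjusted p of 0.05 with limma, names mark most of them, and the dashed line marks equal values. Rpl30 lies at the upper right and Rpl4 at the lower left, and 1 Rpl5 probe lies below 0 on both axes while the other 2 lie above.

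Among the small subunit genes, Rps28, a protein at the exit channel for messenger RNA, had the smallest adjusted p. Its lowest, median and highest levels on the 9 arrays of 6 h were -3.75, -3.34 and -2.88, and on the 9 of 24 h -3.21, -2.36 and 0.026. The log2 change was 1.07 ± 0.26 (SE, adjusted p = 0.0139) and 0.82 ± 0.13 without the array that stood apart. The time ranges overlapped only through the first array of concentration 1 for 24 h (-3.21).

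Rps2, a protein at the entry channel and a substrate of the methyltransferase Prmt3, was higher with 2 of its 4 probes, whose changes ran from 0.70 to 1.66. The probe A_44_P728951 printed above ran over -3.34, -2.05 and -1.46 at 6 h and -3.29, -0.71 and 2.63 at 24 h (lowest, median and highest), a log2 change of 1.66 ± 0.56 (SE, adjusted p = 0.0451). It was the 1 member whose call was lost without the array that stood apart (1.28 ± 0.51, adjusted p = 0.0681). The probe A_44_P229769 changed by 1.22 ± 0.35 (SE, adjusted p = 0.026). The high values at 24 h were not shared by all replicates: A_44_P728951 stood at 1.28, -1.98 and 0.61 on the 3 arrays of 1/25, where the second array stayed near the levels of 6 h.

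Rps27, a zinc finger protein of the small subunit, ran over 0.32, 0.74 and 1.71 at 6 h and 0.51, 1.64 and 2.42 at 24 h, and changed by 0.78 ± 0.22 (SE, adjusted p = 0.0249). The change was 0.75 without the array that stood apart. Rpsa did not pass the test, with changes of -1.0 ± 0.53 and -0.55 ± 0.49 (SE, adjusted p = 0.158 and 0.39). These were -0.55 and -0.053 without the array that stood apart, and the second probe was saturated on 5 arrays. The first Rpsa probe stood at -1.75, 1.81 and 0.41 on the arrays of 1/25 for 24 h, a range wider than that of all 6 h arrays (0.45 to 1.74).

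The other small subunit genes described here were not called. Rps7 changed by 0.80 ± 0.37 (SE, adjusted p = 0.112), Rps18 by 0.64 ± 0.36 (adjusted p = 0.174) and Rps29 by 0.24 ± 0.33 (adjusted p = 0.582). Without the array that stood apart, Rps7 stood at 0.47, Rps18 at 0.26 and Rps29 at -0.10. Rps6 was saturated on 12 arrays, Rps14, which is lost in a human deletion syndrome with anaemia, on 13, Rps19, the gene most often mutated in human Diamond-Blackfan anaemia, on 16, and Rps3 on 19, so their changes are not given. Rps4x changed by -0.44 ± 0.18 (SE, adjusted p = 0.0782). Rps3 was not saturated on the array that stood apart, with -1.45 there.

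Among the large subunit genes, Rpl30, which binds its own message in yeast, had the largest rise among the called probes. It ran over -1.67, -1.22 and -0.054 at 6 h and -2.18, 0.20 and 4.29 at 24 h (lowest, median and highest), with -2.18, 0.20 and -0.66 at concentration 1, 1.23, -0.48 and 4.29 at 1/5 and 1.66, -0.073 and 1.66 at 1/25. The second arrays of 1/5 and 1/25 lay below the first and the third of their groups. The log2 change was 1.77 ± 0.50 (SE, adjusted p = 0.0245), and 1.33 ± 0.36 without the array that stood apart, on which it was saturated.

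Rpl31, which sits by the exit of the peptide tunnel, changed by 1.32 ± 0.45 with the called probe (SE, adjusted p = 0.0449), and by 0.85 without the array that stood apart. It was saturated on 1 array and stood at 0.81, 0.33 and 0.79 at 1/25 for 24 h against -0.86, -0.27 and -1.22 at 1/25 for 6 h, without overlap. Rpl15 changed by 1.17 ± 0.36 with its probe nearer the 3′ end (SE, adjusted p = 0.0334), and by 0.87 without the array that stood apart. The other Rpl15 probe was saturated on 11 arrays, and its change is not given.

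Rpl4, which lines the peptide exit tunnel, had the largest fall among the called probes. It was saturated on the first array of 1/25 for 6 h. At 6 h it ran over 1.11, 1.54 and 1.83 and at 24 h over -5.63, -0.38 and 1.44 (lowest, median and highest). The individual arrays of 24 h stood at 0.88, -0.38 and 1.17 at concentration 1, -0.78, 1.13 and -5.63 at 1/5 and -1.66, 1.44 and -0.91 at 1/25. All 9 arrays of 6 h lay above 1, and at 24 h 3 of 9 did. The log2 change was -2.0 ± 0.66 (SE, adjusted p = 0.0394) and -1.36 ± 0.39 without the array that stood apart. Rpl3, a protein next to the peptidyl transferase centre, changed by -1.30 ± 0.42 (SE, adjusted p = 0.0393), from -0.30, -0.050 and 0.40 at 6 h to -4.34, -0.71 and -0.14 at 24 h.

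In the stalk, Rplp2 was called with 0.80 ± 0.26 (SE, adjusted p = 0.0358). It was saturated on 6 arrays, among them all 3 of 1/25 for 24 h and none of 1/25 for 6 h. The 24 h group at 1/25 was at least 1.71-fold brighter than that of 6 h (adjusted p = 0.514), and against untreated cultures at least 1.81-fold (adjusted p = 0.4), neither past the threshold. Rplp1 was saturated throughout.

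Within single concentrations no member was called between the times. At concentration 1 the count was 0 (0.242% of all probes), at 1/5 it was 0 (0.125%) and at 1/25 it was 0 (0%), with 0, 39 and 13 members at an unadjusted p under 0.05 against 14.6%, 32.8% and 10.4% of all probes. The median changes of the members were -0.21, 0.63 and 0.66, beside -0.23, -0.27 and -0.17 over all probes. The first turned to 0.15 when arrays were scaled to their median, and the second was 0.14 without the array that stood apart. Without the second array of 1/5 for 24 h, 56 members were called at 1/5, with 37.6% of all probes. Within each concentration the arrays of 24 h lay on other slides than those of 6 h, so slide and time cannot be told apart there. At 1/25 the 75th percentile lay between 14579 and 18406 intensity units at 6 h and between 10726 and 13103 at 24 h. At 1/5 it lay between 14807 and 16040 and between 3165 and 13095. The part of this difference in brightness was not tested. At 1/25, 30 of 60 members were higher at 24 h on all 3 arrays than on all 3 of 6 h, against 4.65% of all probes, and with median scaling 17 were, against 6.29%. Lower without overlap was 1 member, against 5.93%, and with median scaling 0, against 4.31%.

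The 3 Rpl5 probes did not move together. Rpl5 binds a ribosomal RNA of the large subunit together with Rpl11. Relative to its own median over the 20 arrays, the probe first along the transcript (A_44_P432139) stood at 2.03 on the first array of 1/5 for 24 h and at 2.41 and 1.77 on the first and the third of 1/25. On the same arrays the probe nearest the 3′ end (A_44_P422103) stood at -1.80, -1.75 and -1.24. On the array that stood apart the order was reversed, with -0.17 and 3.1. The second probe went the way of the first on these 4 arrays, with 1.80, 1.99, 1.62 and -0.69. Other genes were high on the same 3 arrays of 24 h. The Rpl29 probe A_44_P100996 stood at 0.59 on the first array of 1/5 and at 1.18 and 0.53 on the first and the third of 1/25, and at -1.31 and -1.17 on the second arrays of these groups. The Rps2 probe printed above stood at 0.42 and -1.84 on the first and second arrays of 1/5.

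The change of Rpl5 between the times differed from probe to probe. It was 0.93 ± 0.31 with the first probe (SE, adjusted p = 0.0432), 0.77 ± 0.30 with the second (adjusted p = 0.0703) and -0.71 ± 0.48 with the one nearest the 3′ end (adjusted p = 0.262). Without the array that stood apart all 3 passed, at 1.08, 0.96 and -1.16 (adjusted p = 0.0226, 0.0186 and 0.0181), in opposite directions.

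**Figure D5:**
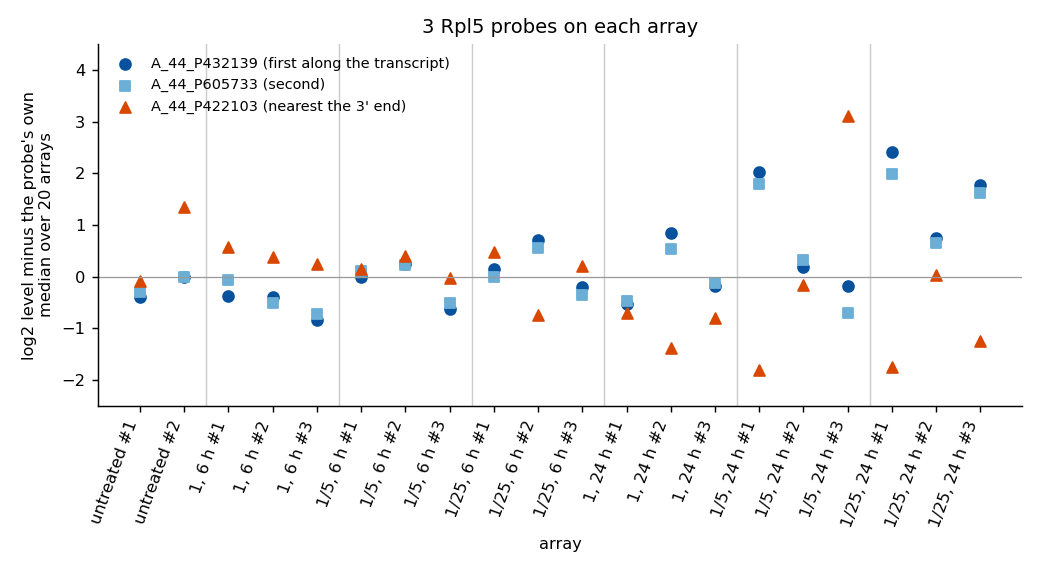
Log2 level of the 3 Rpl5 probes on each of the 20 arrays, each minus the probe's own median over the arrays, with grey lines between groups. Colours and shapes mark the probes. The 2 probes nearer the 5′ end rise together on the first array of 1/5 and the first and the third of 1/25 for 24 h while the probe nearest the 3′ end falls there, and the third array of 1/5 for 24 h shows the reverse.

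Other genes with several probes were compared in the same way. Apart from 3 probes described in the array files as similar to a zinc finger protein, 24 genes had more than 1 kept probe, and in 17 of them the probes differed in how many arrays saturated them. The changes of the 3 Rpl5 probes, none of them saturated on any array, spanned 1.64 on the log2 scale, and 2.24 without the array that stood apart. In 18 genes the outer probes lay at least 100 bases apart on the genome. On the array that stood apart, the probe nearer the 3′ end deviated upward from its own median by over 1 more than the other in 7 of these genes and by over 1 less in 5. Rpl15 and Rpl19 were the widest, at 8.20 and 6.98. Signals at the scanner's ceiling entered these differences at their value. The Rpsa probes differed by only 0.21.

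Ribosomal protein genes with ties to human disease or to MDM2 were counted as lists in the comparison of 24 h with 6 h, where 7.33% of all probes were higher and 15.4% lower. Of 26 probes of 16 genes mutated in human Diamond-Blackfan anaemia, 5 were higher and 0 lower at 24 h, with a median change of 0.77 over the 10 unsaturated ones, or 0.61 without the array that stood apart. Of 10 probes of 7 genes whose proteins bind MDM2, 1 was higher and 0 lower, and that 1 was the first Rpl5 probe. Rpl11 changed by 0.43 ± 0.38 (SE, adjusted p = 0.389) and Rpl26, which binds the message of the tumour suppressor p53 in human cells, by 0.18 ± 0.39 with its less saturated probe (adjusted p = 0.728). Without the array that stood apart these were 0.068 and -0.23, and both probes were saturated on that array.

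By subunit, the unsaturated small subunit members had a median change of 0.48 between the times (17 probes) and the large subunit members 0.20 (23 probes). The medians without the array that stood apart were 0.25 and 0.0012. Called members numbered 5 higher and 0 lower of 45 small subunit probes, and 4 higher and 2 lower of 58 large subunit probes. Both shares lay below the 22.7% of all probes called. The difference between the subunits was not tested.

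Related gene lists were counted in the same comparison, where 22.7% of all probes were called. Of 74 kept probes of mitochondrial ribosomal protein genes, 3 were higher and 7 lower, with a median of 0.24. Of 20 probes of ribosome biogenesis genes, 0 were higher and 5 lower, with a median of -0.28. Ubtf, which drives transcription of ribosomal RNA genes, was lower, at -2.02 ± 0.33 (SE, adjusted p = 0.00243). Translation factors counted 3 higher and 15 lower of 53 probes (median -0.71). Eif2s2 was higher, with 1.68 ± 0.46 (SE, adjusted p = 0.0216), and stayed called without the array that stood apart (1.33, adjusted p = 0.0232). Eif4e, which binds the cap of messages, was higher, with 0.86 ± 0.28 (SE, adjusted p = 0.0393), and Eif4g2, which acts in cap-independent initiation, lower, with -3.34 ± 1.01 (SE, adjusted p = 0.0295). Of 19 probes of the mTOR and S6 kinase axis, 0 were higher and 4 lower, the latter including Eif4ebp2, a repressor of Eif4e, with -2.68 ± 0.73 (SE, adjusted p = 0.0206). The medians of these lists without the array that stood apart, in the order given, were 0.17, -0.13, -0.29 and -0.20, and Eif4e was no longer called (0.73, adjusted p = 0.0525). The arrays of 24 h and 6 h lay largely on different slides, so slide and time can barely be told apart in this comparison.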

How the data were processed

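All 20 arrays were read with Agilent Feature Extraction 9.5.3.1 (protocol GE1-v5_95_Feb07), and the deposited intensity values are background-subtracted and spatially detrended processed signals, per the file headers. The authors also deposited 1 table with a linear ratio per probe and array, with column medians from 0.859 to 1.85. Set against the scanner files, it equals the processed signal over the array's median, divided by the mean of the untreated arrays (99.98% of log2 values within 0.05 after centring each column), so scale, centring and direction were found from the values and are not given in the sources used here. It served as an alternative.

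Levels were log2 of the processed signal minus log2 of the array's 75th percentile over the 43379 non-control spots, with outlier spots missing, spots of a probe averaged, and the percentile taken before the log. Kept probes (35069 of 41012) were well above background on every array of some group. A limma 3.58.1 fit (R 4.3.3) of 7 group means with 13 residual degrees of freedom gave all 12 comparisons and the interaction, with Benjamini-Hochberg adjustment over all kept probes and a threshold of 0.05. The script was tested on simulated data. Where a group was saturated throughout, a lower bound is given in place of a fold. The number of arrays limits the precision.

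Members and lists were chosen with earlier results of these data known. Named genes are the largest changes past the threshold (at most 4 per direction), those with the smallest p at concentration 1, a fixed set of well-known members, the extremes of level, genes whose probes differ and, in related lists, at most 2 genes per direction. Rps25 and Rpl28 were named after their values were seen. Some members' own values and probe sequences are not reported here. Replicate numbers were not used to pair samples in the main fit, and the labels do not say whether they mark pairs. Over 57 pairs of same-numbered arrays the correlation of deviations had a median of -0.027, and 12 exceeded 0.1. Over 114 pairs with other numbers the median was 0.032, and 43 exceeded 0.1. Tables and figures used Python 3.11.15 with pandas 2.3.3, numpy 2.4.6, scipy 1.17.1 and matplotlib 3.10.9. Probe positions come from the array files (rn3) and transcript starts from RefSeq (GRCr8).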

Additional observations from a re-analysis of the deposited data

How the results depend on the processing

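No called value reversed. Medians of the members that lay near 0 changed sign under some settings for concentrations 1 and 1/5 at 6 h against untreated, for 24 h against 6 h at concentration 1 (0.15 under median scaling and with the deposited table) and for concentration 1 against 1/25 at 6 h (-0.26 under both). Of the counts of called members and of the members' median changes, 815 recomputed values stayed within 1.5 times the main count or within the spread, and 39 moved. That spread was the SD within groups of the members' median per array, 0.47 with all arrays. Without the array that stood apart it was 0.25, and a bar at that value would count more of the medians as moved. With array weights (limma's gene-by-gene estimator, since the REML estimator did not converge), 10 members were called at concentration 1 for 24 h against untreated (16% of all probes), 43 at 1/5 (42.1%), 49 at 1/25 (48.1%), 25 for 24 h against 6 h at concentration 1 (46.7%), 40 at 1/5 (41.6%), 64 at 1/25 (51.4%), 62 over the 3 concentrations (70.1%) and 84 for concentration 1 against 1/25 at 24 h (50.6%). With slide as a random block, whose estimated correlation was -0.16, 38 were called at 1/5 for 24 h against untreated (32.6% of all probes), 56 for 24 h against 6 h at 1/5 (44.7%) and 43 over the 3 concentrations (48.5%). Over the 3 concentrations, median scaling and the deposited table each called 46 members (34.9% and 35.1% of all probes), and 7 were called (25.2%) when probes saturated on any array were left out, which leaves fewer probes. Quantile normalization called 1 member at 1/5 between the times (0.67%). Median scaling and the deposited table put the members' median change at 1.12 and 1.12 for 1/5 for 24 h against untreated, at 0.96 and 0.96 for 1/25, and at 1.11 and 1.12 for 24 h against 6 h at 1/5. The cause of these shifts was not tested. Leaving out 1 array at a time gave 1 to 43 called members over the 3 concentrations, 0 to 45 at 1/5 for 24 h against untreated (median change 0.13 to 0.97), 0 to 1 at 1/25, 0 to 56 for 24 h against 6 h at 1/5 (median 0.14 to 0.95) and 0 to 2 at 1/25. With the replicate block, 9 members were called over the 3 concentrations (17.3% of all probes) and 0 in the other 11 comparisons, so the block changed no count by over 1.5 times. Slide as a fixed block could be fitted only for concentrations 1 and 1/5 for 6 h against untreated. Scan day as a fixed block and the omission of 3 probes described as a zinc finger gene were chosen after seeing the data. Of the values for named probes, 114 lost the threshold, 98 gained it and 4556 kept their side. Signal at the scanner's ceiling limits what can be measured for most members.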
